A study of Mus musculus with 36 samples.

Results

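Vim, Cdh1 and 8 further genes of the epithelial-mesenchymal transition (EMT) were followed by RNA sequencing through primary mouse prostate organoids that carried FOXA1 constructs. The 10 genes (Vim, Cdh1, Cdh2, Snai1, Snai2, Zeb1, Zeb2, Twist1, Grhl2 and Ovol1) were taken by name out of 45232 genes, as regulators and readouts of this transition. The constructs were wild-type FOXA1 (WT), FOXA1 FE255del, FOXA1 R219S and EV, which the labels call empty vehicle. Each was sampled at day 0, day 1 and day 11 in 3 replicates, giving 12 groups and 36 libraries. All cells carried pCW constructs and were sorted for DsRED before seeding. The labels give every library the same treatment, doxycycline at 500 ng/mL to switch on FOXA1 joined to DsRED through a 2A peptide, EV included, and do not say what EV expresses. That no doxycycline had been given at day 0 appears only in how the deposited tables are named, and the species of the FOXA1 insert is not given. Replicates of a construct were seeded from 1 sorted population and kept apart afterwards, so the p-values measure the spread between such cultures, not between animals.

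EMT is the switch by which epithelial cells loosen their junctions and take on the cytoskeleton and motility of mesenchymal cells. Its usual readouts are loss of the junction protein E-cadherin, encoded by Cdh1, and gain of N-cadherin, encoded by Cdh2, and of the intermediate filament vimentin, encoded by Vim. The zinc finger and helix-loop-helix factors encoded by Snai1, Snai2, Zeb1, Zeb2 and Twist1 repress Cdh1 directly or indirectly, while Grhl2 sustains Cdh1 and Ovol1 holds down EMT factors. In the prostate, Snai2 is also a normal gene of basal cells, and FOXA1 is a forkhead factor of the luminal lineage.

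Library totals ran from 61476938 to 102385337 counts, replicates correlated across genes at r of at least 0.991, and 18176 genes passed the filter on low counts. Levels are TMM-scaled CPM (counts relative to library size) and are given as mean ± SD with n = 3. Differences are log2 fold changes ± SE from edgeR's quasi-likelihood test, with p-values adjusted by Benjamini-Hochberg over all genes tested and a threshold of 0.05. Foxa1, which includes any reads of the insert that align to the mouse gene, was between 290.7 and 419.5 CPM in the 9 day 1 libraries of the FOXA1 constructs, against 221.8 to 231.8 CPM in EV. At day 11 Foxa1 was nearer to EV, at 252.7 to 280.2 CPM in WT and 266.4 to 316.1 in FE255del. R219S then had 242.4 to 300.6 CPM and EV 216.8 to 240.8. At day 0, WT already had 252.9 to 258.9 CPM against 227.2 to 237.1 in EV. FE255del (230.3 to 236.9) and R219S (222.2 to 234.7) overlapped EV at day 0. In bulk RNA, fewer cells of a type and less RNA per cell cannot be told apart.

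The 10 genes differed widely in abundance. Per kilobase of exon, the median over libraries was 245 CPM for Cdh1, 39.7 for Snai2, 29.1 for Grhl2, 3.9 for Ovol1 and 1.73 for Vim. It was 0.0294 CPM per kilobase for Snai1, 0.0148 for Zeb1 and 0.0122 for Zeb2, and it was 0 for Cdh2 and Twist1. E-cadherin mRNA was abundant, Snai2 was plainly present, and the other EMT factors were near the limit of counting. Vim was by far the most variable of the 5 abundant members, with its highest library at 90.1 times its lowest, against 6.28 times for Snai2, 2.3 for Ovol1, 1.58 for Cdh1 and 1.38 for Grhl2. The filter kept 8 members, and Cdh2 and Twist1 were not tested.

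Vim (ENSMUSG00000026728.6) lies on the plus strand of chromosome 2 from 13573927 to 13582826 in mm10, with 4743 exonic bases in the GENCODE M21 annotation. Because Vim is the member that changed most, the stretch of its RefSeq promoter window that holds the TATA word TATAAA is shown, from chr2:13574267-13574296 of the plus strand (RefSeq, GRCm38.p6), with that word in capitals.
Vim: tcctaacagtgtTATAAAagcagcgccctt
The word begins 32 bases before the RefSeq start. A GENCODE transcript that starts at 13573952 begins before these bases and spans them, and another starts at 13574281. TATAAA, searched on both strands, occurs in 13.6% of 32851 RefSeq windows that reach from 250 bases before a start to 50 after it. In the Vim window there was no match to the forkhead words TGTTTAC (3.65% of windows) or TGTTTGC (5.07%), and none to the E-box CANNTG (72.3%), and this says only that these letters are not there. Windows were used here for 4 of the 10 genes, Vim, Snai1, Zeb2 and Twist1. Cdh2 and Zeb1 were among the genes not searched, and this count does not say which windows the full RefSeq table held.

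Vim rose in all 3 FOXA1 constructs after 1 day and then parted by construct, with R219S reaching a level far above any other group at day 11. At day 0, WT cultures had 10.54, 10.99 and 10.16 CPM of Vim, FE255del 2.83, 3.463 and 2.524, R219S 4.39, 4.167 and 3.598, and EV 3.077, 2.878 and 2.529. WT therefore stood apart already at day 0, with all 3 libraries above every other library of that day (1.90 ± 0.17 over EV, adjusted p = 1.1e-09). FE255del overlapped EV (0.05 ± 0.19, adjusted p = 0.897). The small R219S excess (0.52 ± 0.18, adjusted p = 0.044) did not overlap EV but kept its call in only 5 of 14 other settings, losing it when any of 5 of the 6 libraries was left out, with adjusted p up to 0.141.

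At day 1, Vim was 31.83, 32.96 and 30.47 CPM in WT, 8.356, 10.91 and 9.059 in FE255del, 32.74, 38.81 and 31.62 in R219S, and 1.817, 2.049 and 1.81 in EV. Every FOXA1 library lay above every EV library, and FE255del lay between EV and the other constructs. The folds over EV were 16.8 for WT (4.07 ± 0.17, adjusted p = 6.2e-18), 5 for FE255del (2.32 ± 0.18, adjusted p = 5.9e-12) and 18.2 for R219S (4.18 ± 0.17, adjusted p = 7.2e-18). FE255del was 3.36-fold below WT (-1.75 ± 0.14, adjusted p = 7.3e-11), a gap also present at day 0 (-1.85 ± 0.17, adjusted p = 5.2e-09) and day 11 (-1.93 ± 0.17, adjusted p = 1.0e-09). R219S and WT overlapped, and their difference of 0.12 ± 0.14 missed the threshold (adjusted p = 0.489).

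At day 11, Vim was 10.27, 9.966 and 9.986 CPM in WT, 3.113, 2.667 and 2.148 in FE255del, 153, 145.2 and 163 in R219S, and 8.095, 6.636 and 3.861 in EV. The R219S libraries were the highest of the whole series, while FE255del had fallen below every EV library. The folds over EV were 24.7 in R219S (4.63 ± 0.16, adjusted p = 3.8e-19) and 1.62 in WT (0.69 ± 0.15, adjusted p = 5.2e-04), and FE255del was 2.35-fold lower (-1.23 ± 0.17, adjusted p = 1.1e-06). R219S exceeded WT 15.3-fold (3.93 ± 0.15, adjusted p = 1.7e-18) and FE255del 58-fold (5.86 ± 0.17, adjusted p = 2.9e-21). EV was itself spread at day 11, and the WT difference ranged from 0.45 to 0.94 over 14 other settings, all of which kept its call.

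**Figure D1:**
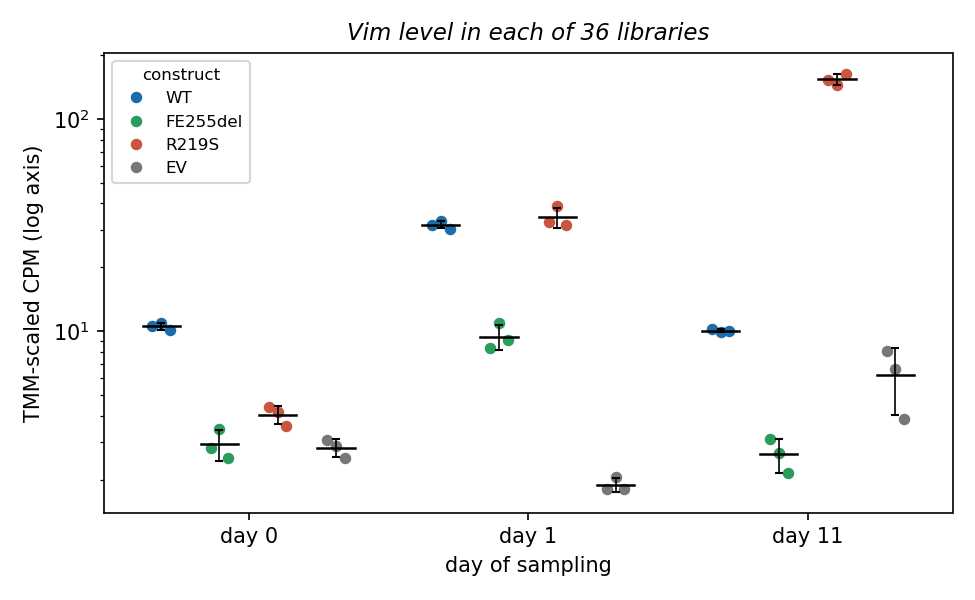
Vim level in TMM-scaled CPM on a log axis against day of sampling; points are the 36 libraries coloured by construct, long lines are group means and bars are SD (n = 3). R219S stands at 153.8 CPM on average at day 11 against 6.197 CPM in EV, and at day 1 the WT and R219S libraries overlap above FE255del and EV.

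Over time, Vim was up at day 1 and near its day 0 level again at day 11 in WT and FE255del, and went on rising in R219S. WT went up 3.01-fold between day 0 and day 1 (1.59 ± 0.14, adjusted p = 1.2e-10), and day 11 overlapped day 0 again (-0.07 ± 0.15, adjusted p = 0.751). FE255del had 3.22-fold more at day 1 than at day 0 (1.69 ± 0.17, adjusted p = 1.0e-09) and -0.15 ± 0.19 at day 11 (adjusted p = 0.534). R219S rose 8.49-fold by day 1 (3.08 ± 0.16, adjusted p = 8.2e-16) and a further 4.47-fold from there to day 11 (2.16 ± 0.14, adjusted p = 9.4e-14). EV was not called at day 1 (-0.58 ± 0.20, adjusted p = 0.200), although a fit of these 2 groups alone called a fall (-0.59, adjusted p = 0.026), and it rose 2.2-fold over day 0 by day 11 (1.14 ± 0.18, adjusted p = 3.8e-06). In the order of the 12 group means, R219S at day 11 (153.8 ± 8.92 CPM) stood clear of the rest, R219S and WT at day 1 overlapped (34.39 ± 3.87 and 31.75 ± 1.25), and WT at days 0 and 11 and FE255del at day 1 overlapped (10.56 ± 0.412, 10.07 ± 0.169 and 9.441 ± 1.32). EV at day 1 was lowest at 1.892 ± 0.136 CPM.

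Cdh1 (ENSMUSG00000000303.9, plus strand of chromosome 8, 106603351 to 106670246) did not fall while Vim was at its peak in R219S. On day 11 it was 1404, 1382 and 1415 CPM in WT, 1327, 1489 and 1340 in FE255del, 1371, 1398 and 1302 in R219S, and 1118, 1117 and 1101 in EV. All 9 FOXA1 libraries lay above all 3 EV libraries. WT rose by 0.33 ± 0.04 over EV (adjusted p = 3.4e-08). FE255del gained 0.32 ± 0.04 (adjusted p = 8.6e-08), R219S gained 0.29 ± 0.04 (adjusted p = 8.0e-07), and the 3 constructs overlapped one another.

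At the earlier days Cdh1 was close to EV. At day 0 its group means were between 1119 and 1182 CPM and no construct was called against EV. At day 1 it was 998.8, 1019 and 965 CPM in WT, 994.8, 1045 and 1016 in FE255del, 994.6, 958.8 and 941.5 in R219S, and 1049, 1085 and 1042 in EV. WT and R219S lay below EV while FE255del overlapped it. Cdh1 fell in R219S (-0.13 ± 0.04, adjusted p = 0.007), a call lost without the filter on low counts (adjusted p = 0.055), whereas WT stood at -0.09 ± 0.04 (adjusted p = 0.059; 0.03 with total-count scaling, the other sign) and FE255del at -0.06 ± 0.04 (adjusted p = 0.279). Within constructs Cdh1 first fell between day 0 and day 1, with changes of -0.22 ± 0.04 in WT (adjusted p = 1.7e-05), -0.29 ± 0.04 in R219S (adjusted p = 2.5e-07) and -0.14 ± 0.04 in FE255del (adjusted p = 0.004; 11 of 14 other settings kept this call). EV was at -0.08 ± 0.04 (adjusted p = 0.506). From day 1 to day 11, WT cultures gained 0.49 ± 0.04 of Cdh1 on the log2 scale (adjusted p = 2.2e-12). FE255del gained 0.44 ± 0.04 (adjusted p = 3.8e-11) and R219S 0.49 ± 0.04 (adjusted p = 2.3e-12), against 0.07 ± 0.04 in EV (adjusted p = 0.170; 6 of 14 other settings called this EV change). Set against day 0, the day 11 gains were 0.27 ± 0.04 for WT (adjusted p = 1.6e-06), 0.30 ± 0.04 for FE255del (adjusted p = 1.6e-07) and 0.20 ± 0.04 for R219S (adjusted p = 8.7e-05).

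Grhl2, the grainyhead factor that sustains epithelial junction genes (ENSMUSG00000022286.12, plus strand of chromosome 15, 37233036 to 37363569), was the steadiest member. At day 1 it was 258, 259.9 and 254.6 CPM in WT, 272.7, 271.4 and 278.8 in FE255del, 216.9, 212 and 210.9 in R219S, and 247, 252.8 and 257.1 in EV. FE255del lay above EV and R219S below it, while WT overlapped it. Grhl2 rose in FE255del (0.12 ± 0.04, adjusted p = 0.005) and fell in R219S (-0.24 ± 0.04, adjusted p = 8.4e-07). At day 11 it was 240.2 ± 14.9 CPM in R219S and 280 ± 9.76 in EV (-0.22 ± 0.04, adjusted p = 8.1e-06). WT was called lower at day 11 with overlapping libraries (-0.10 ± 0.04, adjusted p = 0.028), a call that 6 of 14 other settings lost, among them leaving out EV replicate 1 (-0.07, adjusted p = 0.171), WT replicate 1 (-0.08, adjusted p = 0.130) or WT replicate 2 (-0.08, adjusted p = 0.127). Grhl2 shares 169 exonic bases with the antisense gene Gm16136, which holds 185442 counts beside 655558 for Grhl2, and the strand setting of the counting is not given.

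Ovol1, a zinc finger repressor of EMT factors (ENSMUSG00000024922.1, minus strand of chromosome 19, 5549136 to 5560646), was lower in all 3 FOXA1 constructs at day 1. The libraries had 9.671, 10.82 and 9.431 CPM in WT, 8.427, 8.365 and 8.407 in FE255del, 7.564, 7.767 and 8.994 in R219S, and 13.83, 12.07 and 13.81 in EV. No FOXA1 library reached the lowest EV library. On the log2 scale the WT difference was -0.41 ± 0.09 (adjusted p = 1.5e-04). It was -0.66 ± 0.09 for FE255del (adjusted p = 1.2e-07) and -0.71 ± 0.09 for R219S (adjusted p = 3.5e-08). By day 11 Ovol1 was still lower in WT (-0.54 ± 0.09, adjusted p = 4.6e-06) and FE255del (-0.46 ± 0.09, adjusted p = 5.8e-05). R219S at day 11 had 13.22 ± 1.05 CPM and EV 15.15 ± 1.28 (-0.20 ± 0.09, adjusted p = 0.088; total-count scaling called it, adjusted p = 0.037, as did leaving out R219S replicate 3, -0.25, adjusted p = 0.050 and just under the threshold). Ovol1 shares 690 exonic bases with Gm31166 and 76 with AC126029.1, both on the opposite strand.

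**Figure D2:**
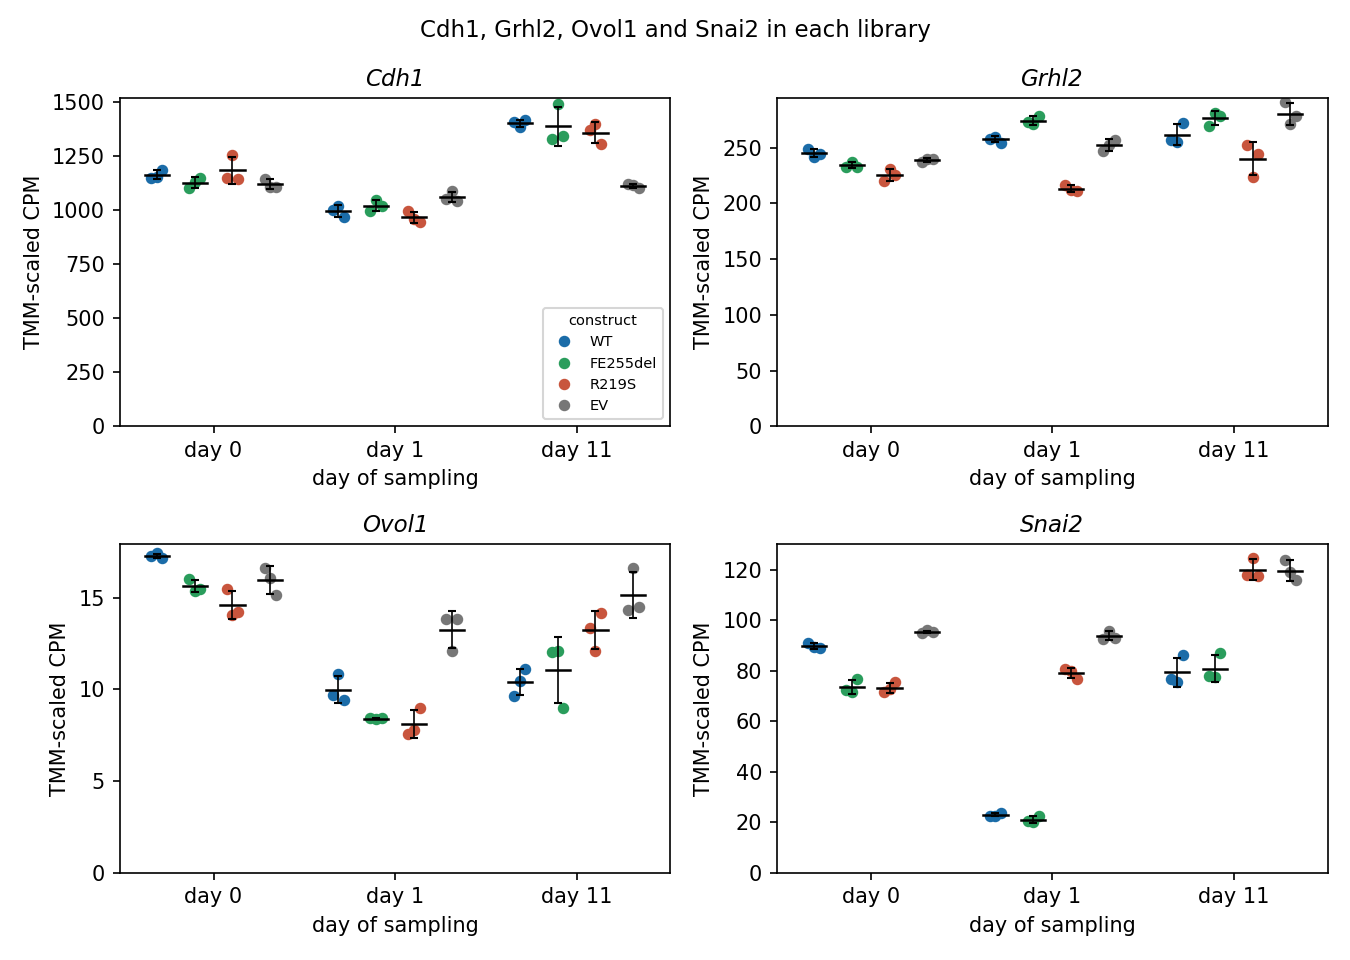
Cdh1, Grhl2, Ovol1 and Snai2 in TMM-scaled CPM against day of sampling, from 0; points are libraries, long lines are group means and bars are SD (n = 3). Cdh1 in the 9 FOXA1 libraries of day 11 lies at or above 1302 CPM against at most 1118 CPM in EV, and Snai2 drops near 20 CPM in WT and FE255del at day 1 only.

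Snai2, which encodes the repressor Slug (ENSMUSG00000022676.6, plus strand of chromosome 16, 14705852 to 14709385), stood far below EV in WT and FE255del at day 1 and slightly below it in R219S. The libraries had 22.58, 22.39 and 23.5 CPM in WT, 20.55, 19.89 and 22.41 in FE255del, 80.76, 79.76 and 76.8 in R219S, and 92.56, 95.89 and 93.05 in EV. WT and FE255del formed a low band that overlapped within itself, and R219S stood between that band and EV. WT was 4.11-fold below EV (-2.04 ± 0.05, adjusted p = 8.4e-27), FE255del 4.48-fold (-2.16 ± 0.05, adjusted p = 2.9e-27) and R219S 1.19-fold (-0.25 ± 0.05, adjusted p = 4.2e-05). R219S exceeded WT by 1.79 ± 0.05 (adjusted p = 1.7e-25) and FE255del by 1.92 ± 0.05 (adjusted p = 3.7e-26). FE255del was called slightly below WT (-0.12 ± 0.05, adjusted p = 0.049), which 8 of 14 other settings kept. That call was lost without FE255del replicate 1 (-0.12, adjusted p = 0.109) or 2 (-0.09, 0.229), or without WT replicate 1 (-0.13, 0.066) or 3 (-0.10, 0.165).

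Between day 0 and day 1 Snai2 fell in WT (-1.97 ± 0.05, adjusted p = 3.0e-26) and FE255del (-1.81 ± 0.05, adjusted p = 3.8e-25). In R219S the change was 0.11 ± 0.05 (adjusted p = 0.051; called as a rise in 10 of 14 other settings), and its gap to EV was -0.25 at day 1 beside -0.38 at day 0. Snai2 already differed at day 0. It was 89.71 ± 1.09 CPM in WT, 73.55 ± 2.74 in FE255del, 73.29 ± 2.01 in R219S and 95.34 ± 0.521 in EV. The variants were lower than EV (-0.37 ± 0.05, adjusted p = 3.9e-07 for FE255del and -0.38 ± 0.05, adjusted p = 1.2e-06 for R219S), whereas WT missed the threshold (-0.09 ± 0.05, adjusted p = 0.205). At day 11 Snai2 was 76.51, 75.47 and 86.01 CPM in WT, 78, 77.37 and 87.08 in FE255del, 117.9, 124.8 and 117.3 in R219S, and 123.9, 119 and 115.7 in EV. WT and FE255del lay below all R219S and EV libraries, which overlapped each other. Against EV, WT differed by -0.59 ± 0.05 (adjusted p = 1.6e-12), FE255del by -0.56 ± 0.05 (adjusted p = 4.4e-12) and R219S by 0.01 ± 0.05 (adjusted p = 0.952).

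The paired repressors Zeb1 and Zeb2, zinc finger homeobox factors, separated the constructs in opposite ways, at low counts. Zeb1 (ENSMUSG00000024238.10, plus strand of chromosome 18, 5591860 to 5775467) held 732 counts over 35 libraries. At day 11 it had 57, 61 and 40 counts in WT, 61, 90 and 51 in FE255del, 6, 12 and 11 in R219S, and 8, 11 and 0 in EV. WT and FE255del lay above every R219S and EV library. Zeb1 rose 8.06-fold in WT (3.01 ± 0.50, adjusted p = 6.4e-06) and 10.2-fold in FE255del (3.35 ± 0.49, adjusted p = 8.5e-07), and R219S overlapped EV (0.61 ± 0.59, adjusted p = 0.477). The folds rest on few EV counts. On the log2 scale they ranged over other settings from 2.46 to 3.67 in WT and from 2.80 to 4.02 in FE255del, lowest without EV replicate 3 and highest without EV replicate 2.

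At day 1, Zeb1 was raised in WT, with 33, 33 and 28 counts against 10, 8 and 8 in EV (1.64 ± 0.49, adjusted p = 0.004). FE255del had 12, 15 and 8 counts and R219S 6, 11 and 12, both overlapping EV. The day 0 call in FE255del (1.43 ± 0.51, adjusted p = 0.044) came from 8, 38 and 22 counts against 3, 10 and 10 in EV. These overlapped, and the call was lost without FE255del replicate 2 (0.85, adjusted p = 0.363), FE255del replicate 3 (1.48, adjusted p = 0.078), EV replicate 1 (1.04, adjusted p = 0.215) or EV replicate 2 (1.64, adjusted p = 0.071).

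Zeb2 (ENSMUSG00000026872.13, minus strand of chromosome 2, 44983632 to 45117395) held 1217 counts over 36 libraries. At day 1 it had 16, 20 and 2 counts in WT, 8, 15 and 8 in FE255del, 107, 125 and 134 in R219S, and 15, 25 and 20 in EV. R219S lay above all others, 5.79-fold over EV (2.53 ± 0.37, adjusted p = 5.7e-07). WT and FE255del were at -0.87 ± 0.44 (adjusted p = 0.089) and -1.04 ± 0.46 (adjusted p = 0.055). At day 11 Zeb2 had 20, 14 and 12 counts in WT, 2, 10 and 12 in FE255del, 96, 107 and 98 in R219S, and 40, 60 and 32 in EV. No construct overlapped EV, with R219S higher (1.18 ± 0.35, adjusted p = 0.008) and WT and FE255del lower (-1.59 ± 0.40, adjusted p = 0.001, and -2.52 ± 0.44, adjusted p = 1.4e-05). R219S exceeded WT by 2.77 ± 0.39 in Zeb2 (adjusted p = 2.4e-07) and was below it by -2.40 ± 0.47 in Zeb1 (adjusted p = 5.5e-05) at day 11.

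**Figure D3:**
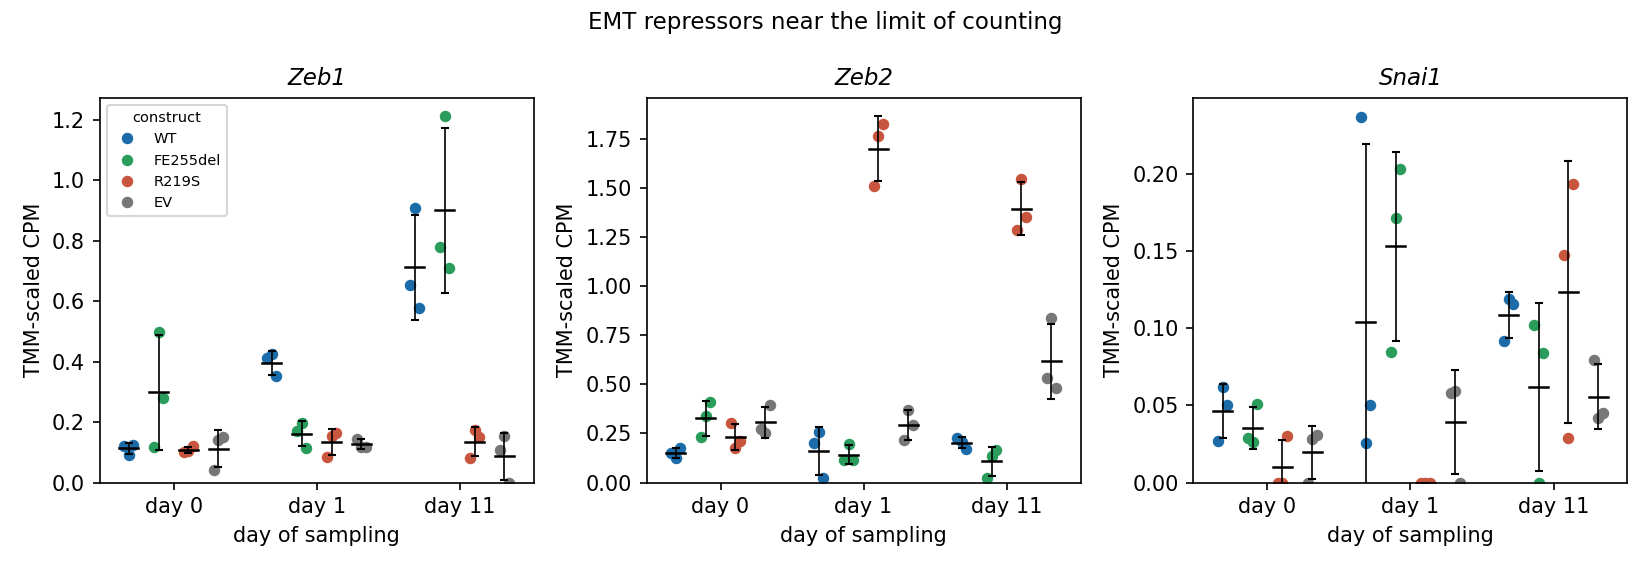
Zeb1, Zeb2 and Snai1 in TMM-scaled CPM against day of sampling; points are libraries, long lines are group means and bars are SD (n = 3), cut at 0. Zeb1 is highest in WT and FE255del at day 11 (0.7123 and 0.9008 CPM) and Zeb2 in R219S at days 1 and 11 (1.698 and 1.393 CPM), and Snai1 stays below 0.25 CPM.

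The remaining factors and N-cadherin were hardly detected. Snai1, the founding Snail repressor (ENSMUSG00000042821.7, chromosome 2), had 167 counts over 28 libraries. At day 1 it had 19, 2 and 4 counts in WT, 6, 13 and 14 in FE255del, 0, 0 and 0 in R219S, and 4, 4 and 0 in EV. The R219S fall against EV (adjusted p = 0.043) was at least 2.81-fold when R219S is set to 3 counts over its 3 libraries, with ranges that overlap at 0. Leaving out any R219S library (adjusted p from 0.089 to 0.091), EV replicate 1 (0.106) or EV replicate 2 (0.107) ended that call. Against FE255del the R219S bound was at least 11-fold lower (adjusted p = 4.7e-04), without overlap. Cdh2 had 2 counts, both in R219S replicate 3 of day 1. Twist1, a helix-loop-helix EMT factor, had 8 counts, 6 in WT replicate 1 of day 0 and 2 in EV replicate 3 of day 11. A group without counts allows between 0.0126 and 0.0147 CPM, as 3 counts over its 3 libraries, which covers counting error only. Low counts were mostly even (69.7% of values from 1 to 20), so both reads of a pair appear to be counted and such limits are too narrow.

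Counted together, the members are read against the share of all genes called. Against EV at day 0, 1 of 8 tested members was called in WT, 2 in FE255del and 2 in R219S, where 22.7%, 20.8% and 20.1% of all genes were, and leaving out 1 library gave 1 to 2 in FE255del and in R219S. At day 1 it was 4 in WT (60.5% of all genes), 4 in FE255del (53.2%) and 7 in R219S (48.5%). On day 11 there were 7 in WT (40.6%), 6 in FE255del (42.2%) and 4 in R219S (32.1%). R219S at day 11 had 3 members higher (Vim, Cdh1 and Zeb2) and 1 lower (Grhl2). At days 1 and 11 a large share of all genes was called, so a call tells little without its size. In absolute log2 terms the largest member differences from EV were those of Vim in R219S (4.63 and 4.18), Vim in WT at day 1 (4.07) and Zeb1 in FE255del and WT at day 11 (3.35 and 3.01), leaving aside Snai1, which had no finite value in R219S at day 1.

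Between constructs at day 0, 3 members were called in FE255del against WT (26.8% of all genes). In R219S against WT at day 0, 4 members were called, all lower, where 7231 of 18176 genes were called, 59.7% of them higher. Vim was at -1.38 there (adjusted p = 8.5e-08). At day 1, 5 members were called in FE255del against WT (41.7% of all genes; 1 to 3 members when any 1 of these libraries was left out), 6 in R219S against WT (59.6%) and 5 in R219S against FE255del (52.5%). At day 11 there was 1 in FE255del against WT (Vim; 17.7%), 6 in R219S against WT (48.9%) and 6 in R219S against FE255del (49.2%). Over time in WT, 5 were called at day 1 against day 0 (59.1%), 5 at day 11 against day 0 (47.2%) and 3 at day 11 against day 1 (55.9%). In FE255del these counts were 7 (53.3%), 6 (54.8%) and 5 (53.0%). In R219S they were 4 (52.1%), 6 (59.8%) and 6 (58.5%), and all 6 of each later pair were higher at day 11. These shares are for either direction, and of all genes called in the later pairs 49.4% and 49% were higher. In EV, edgeR called 0 at day 1 against day 0 (1.43%), where 3 members had an unadjusted p under 0.05 (Vim, Grhl2 and Ovol1), DESeq2 also called 0, and a fit of these groups alone called 2 (Vim and Ovol1). EV had 4 called at day 11 against day 0 (47.6% in either direction) and 4 at day 11 against day 1 (44.5% in either direction). All were higher at day 11, where 48.4% and 47.3% of all called genes were higher. The change since day 0 differed from that of EV for 4 members in WT (44.0%), 4 in FE255del (40.2%) and 5 in R219S (39.4%) at day 1. At day 11 it differed for 5 in WT (21.4%), 5 in FE255del (20.5%) and 5 in R219S (27.1%). For Vim in R219S at day 11 that difference was 4.11 ± 0.24 (adjusted p = 2.1e-13).

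**Figure D4:**
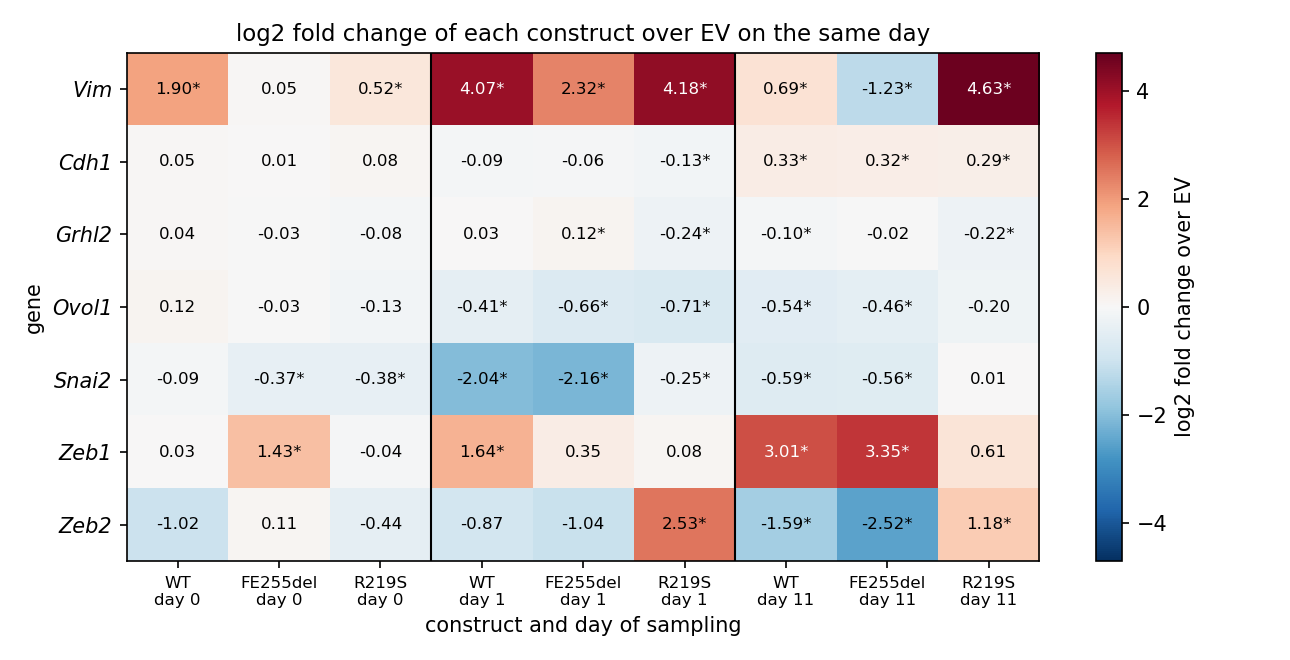
log2 fold change over EV of the same day for 7 members (rows) in each construct and day (columns), from edgeR's quasi-likelihood fit with 3 libraries per group; an asterisk marks an adjusted p under 0.05, red is higher and blue lower than EV. Vim reaches 4.63 in R219S at day 11, Snai2 is at -2.04 and -2.16 in WT and FE255del at day 1, and Zeb1 and Zeb2 have opposite signs in WT and FE255del at day 11.

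Genes that work downstream of EMT factors were set beside the members. Of 29 mesenchymal effector genes (matrix, matrix proteases, integrins and contractile proteins), 25 were tested. In R219S at day 11, 16 were higher and 2 lower than EV (17.7% and 14.4% of all genes), with a median of 0.42, where the median of all genes was 0.00. Postn, the matrix protein periostin, averaged 82 ± 20.7 CPM in R219S and 9.303 ± 2.54 in EV (3.14 ± 0.21, adjusted p = 5.6e-13). Itgb3, the integrin beta-3 subunit, had 134, 106 and 130 counts in R219S and 2, 0 and 0 in EV (adjusted p = 1.2e-11), a ratio of 182 with an exact 95% interval from 50.2 to 1510 that covers counting error only. As both reads of a pair appear to be counted, this interval is too narrow. Fibronectin, encoded by Fn1, averaged 125.5 ± 5.82 CPM in R219S and 19.36 ± 5.01 in EV (2.69 ± 0.22, adjusted p = 2.2e-10). Members also moved the other way, as Cd44, the hyaluronan receptor, was lower in R219S (-0.22 ± 0.05, adjusted p = 6.1e-04).

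The same list leaned down after 1 day, in the cultures where Vim had risen. At day 1, 6 of its members were higher and 15 lower in WT (median -0.70; 29.6% and 30.9% of all genes), 7 and 12 in FE255del (median -0.51; 25.5% and 27.7%), and 7 and 12 in R219S (median -0.21; 23.2% and 25.3%). Moesin, a linker of actin to the membrane encoded by Msn, averaged 108.7 ± 4.41 CPM in WT and 497.6 ± 5.94 in EV (-2.20 ± 0.06, adjusted p = 8.0e-25), and 130.6 ± 1.23 CPM in FE255del (-1.93 ± 0.06, adjusted p = 3.1e-23). At day 11 there were 8 higher and 9 lower in WT (median -0.19; 21.0% and 19.7%) and 7 and 9 in FE255del (median 0.07; 22.6% and 19.6%). Postn was lower than EV there, by -3.37 ± 0.25 in WT (adjusted p = 5.1e-12) and -2.98 ± 0.24 in FE255del (adjusted p = 2.7e-11).

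**Figure D5:**
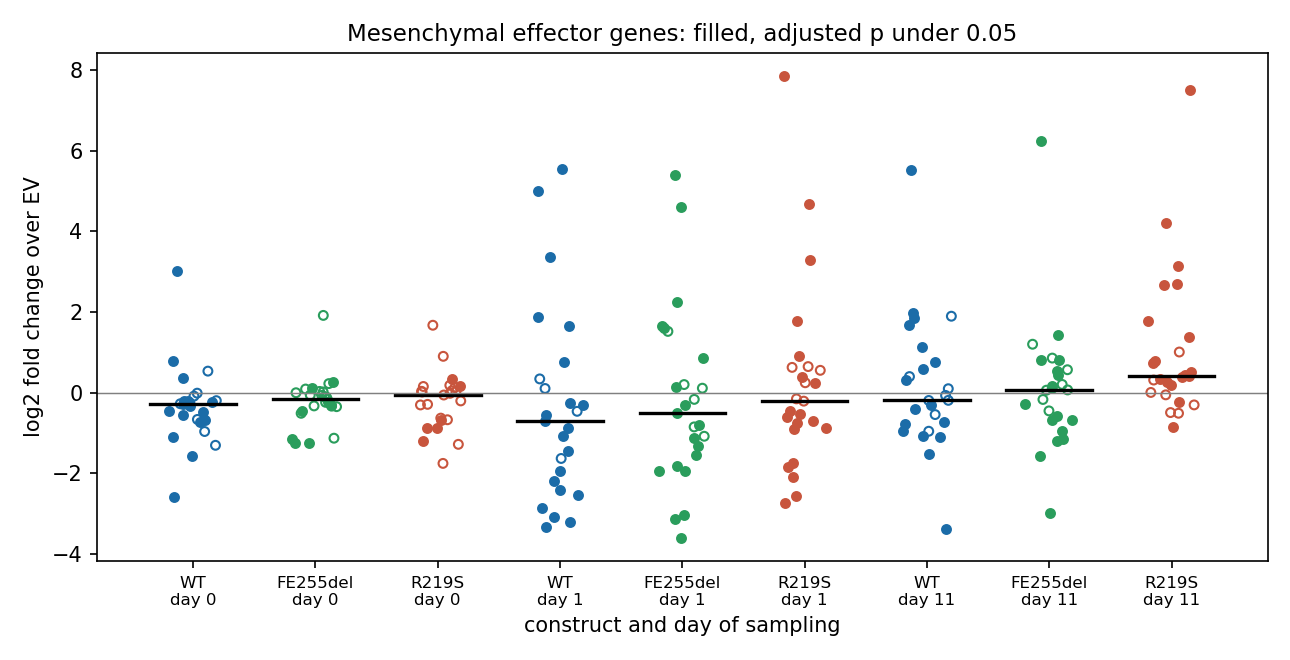
log2 fold change over EV of the same day for the 25 tested mesenchymal effector genes in each construct and day; each point is a gene (filled where the adjusted p is under 0.05), and the black line is the median. The median is -0.70 in WT at day 1 and 0.42 in R219S at day 11.

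Junction genes did not follow Cdh1 as a block. Of 28 epithelial adhesion and junction genes 27 were tested, and at day 1 4 were higher and 18 lower in WT, 6 and 19 in FE255del, and 6 and 17 in R219S, with medians of -0.47, -0.27 and -0.22. Of all genes, 29.6% were higher and 30.9% lower in WT, 25.5% and 27.7% in FE255del, and 23.2% and 25.3% in R219S. P-cadherin, encoded by the basal gene Cdh3, averaged 34.38 ± 0.97 CPM in WT, 58.61 ± 4.62 in FE255del, 88.01 ± 3.69 in R219S and 147.6 ± 4.54 in EV at day 1. At day 11 there were 6 higher and 9 lower in WT (21.0% and 19.7% of all genes), 6 and 9 in FE255del (22.6% and 19.6%), and 12 and 8 in R219S (17.7% and 14.4%). Epcam, an epithelial adhesion molecule, was among the higher ones in R219S (0.49 ± 0.06, adjusted p = 6.7e-09), and Ocln, the tight junction protein occludin, among the lower (-0.41 ± 0.05, adjusted p = 1.7e-08). Of 18 epithelial splicing, trafficking and protease genes, 2 were higher and 11 lower in WT at day 1 (29.6% and 30.9% of all genes), 4 and 12 in FE255del (25.5% and 27.7%), and 4 and 11 in R219S (23.2% and 25.3%). At day 11 there were 5 and 10 in WT (21.0% and 19.7%), 6 and 8 in FE255del (22.6% and 19.6%), and 5 and 8 in R219S (17.7% and 14.4%).

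Other regulators moved in both directions. Of 21 other EMT transcription factors 15 were tested, and at day 11 4 were higher and 3 lower in WT (21.0% and 19.7% of all genes), 6 and 5 in FE255del (22.6% and 19.6%), and 5 and 1 in R219S (17.7% and 14.4%), with medians of -0.02, 0.08 and 0.06. Tbx2, a T-box factor, averaged 28.27 ± 4.43 CPM in R219S and 6.448 ± 0.91 in EV at day 11 (2.13 ± 0.12, adjusted p = 3.9e-16). Foxc1, a forkhead factor, was lower at day 11 in WT (-0.83 ± 0.06, adjusted p = 5.8e-14) and FE255del (-1.02 ± 0.06, adjusted p = 3.2e-16). Of 6 other grainyhead, Ovol and related epithelial regulators 5 were tested, and Tfcp2l1, a grainyhead relative, was lower than EV at day 11 in every construct, with differences of -1.29 ± 0.08 for WT (adjusted p = 6.8e-14), -1.25 ± 0.08 for FE255del (adjusted p = 1.1e-13) and -0.81 ± 0.08 for R219S (adjusted p = 2.2e-09). The other tested genes of this list had their highest group means in FOXA1 constructs at day 11. These were Grhl1 and Grhl3 in WT (56.4 and 30.8 CPM) and Ovol2 and Klf4 in R219S (7.22 and 114 CPM). Of 15 other cadherins 7 were tested. Summed over the list, cadherin CPM at day 11 averaged 191 in WT, 221 in FE255del and 326 in R219S, against 282 in EV. At day 1 these sums averaged 150, 153 and 122 CPM, against 216 in EV. Cdh17, the intestinal and liver cadherin, averaged 7.797 ± 0.802 CPM in R219S and 1.007 ± 0.0239 in EV at day 11 (2.95 ± 0.26, adjusted p = 2.0e-11). Of 9 other type III and IV intermediate filament genes 4 were tested, and Synm, which encodes synemin, a partner of vimentin, was likewise below EV at day 11 in WT (-2.36 ± 0.14, adjusted p = 1.3e-15), FE255del (-2.11 ± 0.14, adjusted p = 1.1e-14) and R219S (-1.69 ± 0.14, adjusted p = 2.7e-12).

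Markers of other cell types moved in some of the groups in which Vim moved. Of 12 fibroblast markers, summed CPM was 46.8 to 62.6 in R219S at day 11, 21.3 to 22.5 in WT, 14.5 to 15.1 in FE255del and 28.7 to 40.4 in EV. In R219S 38.9 CPM of it was Dcn, which rose over EV (1.61 ± 0.22, adjusted p = 8.1e-07), while Col1a2 and Thy1 were at 0, Col3a1 averaged 0.298 CPM and Col1a1 1.4. At day 1 the fibroblast sum was lower in the constructs, at 6.4 to 6.8 CPM in WT, 6.68 to 7.07 in FE255del and 11.2 to 12.8 in R219S, against 15.5 to 16.5 in EV. Of 7 smooth muscle markers, summed CPM was 169 to 195 in R219S at day 11 against 132 to 145 in EV, and at day 1 it was 29.6 to 34.2 in WT, 44.5 to 51.8 in FE255del and 88.9 to 90 in R219S, against 147 to 151 in EV. Nearly all of this was Smtn, with group means from 29.7 to 152 CPM, and Acta2, which reached 30 in R219S at day 11. Myh11 reached at most 0.494 CPM, Tagln 0.252, Cnn1 0.213, Actg2 0.146 and Des 0.0536. Of 8 leukocyte markers, the sum was 56.9 to 74.5 CPM in WT and 45.4 to 53.2 in FE255del at day 1 against 4.57 to 4.93 in EV, and Csf1r gave 63.6 CPM of it in WT, where Adgre1 was at 0 and no group mean of Ptprc passed 0.183 CPM. The leukocyte sum was 2 to 2.48 CPM in R219S at day 1 and 4.42 to 9.01 in R219S at day 11, against 4.9 to 6.2 in EV at day 11. Of 8 endothelial markers, the sum was 21.4 to 25.1 CPM in FE255del, 10.8 to 12.6 in WT and 2.06 to 2.61 in R219S at day 1, against 6.28 to 7.15 in EV. It was 9.74 to 13.1 CPM in R219S at day 11 against 6.26 to 8.09 in EV, and Emcn was at 0 in all 12 groups. Of 6 glial and nerve markers, the sum was 6.6 to 8.37 CPM in WT and 3.39 to 4.14 in R219S at day 1 against 1.97 to 2.79 in EV, and 1.67 to 2.15 in R219S at day 11 against 2.31 to 2.74 in EV. The 8 epithelial markers summed to 14300 to 15200 CPM in R219S at day 11 against 12600 to 13300 in EV, and to 5460 to 8030 CPM in the FOXA1 constructs at day 1 against 11900 to 12900. Much of this sum was keratin. Over group means Krt5 ran from 782 to 6370 CPM and Krt14 from 238 to 2870, both highest in R219S at day 11. Krt19 was instead highest in FE255del at day 1 (2160 CPM), and Cdh1 ran only from 965 to 1400 CPM. The part of these markers in the Vim, Cdh1 and Snai2 results was not tested.

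Over the 12 group means of log2 CPM, which share libraries and constructs, Vim had Pearson's r of 0.01 with Cdh1, 0.52 with Zeb2, -0.06 with Zeb1 and -0.12 with Snai2, as a description. The highest r among members was 0.71, between Snai1 and Grhl2, and the lowest was -0.53, between Zeb2 and Grhl2. Both rest on sparse genes, as Snai1 had 167 counts over all libraries and Zeb2 1217. Among 11136 genes of at least 2 CPM, the closest in pattern to Vim were Rchy1 (r = 0.91), Rnf113a1 (0.91), Ttyh2 (0.91), Fyn (0.90) and Trp53i13 (0.90). For Cdh1 they were Ppm1a (0.96), Cdyl (0.92), Ccn2 (0.92), Rela (0.92) and Adnp2 (0.91). For Snai2 they were Inka1 (0.98), Magi1 (0.98), Serinc5 (0.98), Egfr (0.97) and Heca (0.97). None of the 5 genes nearest to Vim shares its range, as Rchy1 lay between 57.7 and 79.8 CPM and Fyn between 2.25 and 21.2 CPM over group means.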

How the data were processed

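RNA from 36 organoid cultures was sequenced by the authors as polyadenylated RNA with a stranded kit, per the labels' protocols. The deposited tables hold expected counts per gene, 1 table per library, as judged from the values. The submitters' processing notes name STAR 2.4.2a, featureCounts 1.4.3 and mm10, without their roles, and the annotation release and strand setting are not given in the sources used here. In 298311 values the deposited number missed a whole one by at most 3.0e-09, and these were rounded. Symbols came from a reference list of gene names, which matched 44585 identifiers, and exon lengths and coordinates came from GENCODE M21.

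Genes were filtered by filterByExpr in edgeR 4.0.16 (R 4.3.3) on the 12 groups and scaled by TMM (factors 0.938 to 1.08). All 36 libraries were fitted in 1 model with a mean per group, robust dispersions and two-sided quasi-likelihood tests in 35 comparisons, adjusted by Benjamini-Hochberg within each. Fold changes carry no prior count, and the SE is the fold change divided by the square root of F. Correlations used log2 CPM with a prior count of 2. Named genes were the 10 members in every comparison, Foxa1, members of each list with the smallest p, and the 5 genes nearest to Vim, Cdh1 and Snai2. Some further list genes, such as Fn1, Cd44, Cdh3 and Dcn, were named after their values were seen. The members and lists were chosen with earlier results of these data known. The pipeline was tested on simulated data. The alternatives were DESeq2 1.42.0, total-count or RLE scaling, the unfiltered table, a stricter filter (a mean of 2 CPM, with 1 CPM reached in 6 libraries), a fit of the compared groups alone, halved counts, the replicate number as a term, and leaving out each library.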

Additional observations from a re-analysis of the deposited data

Results flagged for a closer look

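For 28 results the change of a FOXA1 construct since day 0 differed from the change of EV over the same days, by the test of that difference in edgeR's quasi-likelihood fit with Benjamini-Hochberg adjustment and 3 libraries per group. Each value is the log2 difference between the 2 changes, construct minus EV, and they share the EV libraries.

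Vim differed in every construct on both days. At day 1 its difference was 2.17 in WT, 2.27 in FE255del and 3.67 in R219S. At day 11 it was -1.20 in WT, -1.29 in FE255del and 4.11 in R219S (adjusted p = 2.1e-13). From day 0 to day 11 EV rose by 1.14 and R219S by 5.25, while the changes in WT (-0.07) and FE255del (-0.15) were not called.

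Cdh1 had -0.14 in WT (adjusted p = 0.045) and -0.21 in R219S at day 1, and 0.28 in WT, 0.31 in FE255del and 0.21 in R219S at day 11. Snai2 had -1.95 in WT and -1.79 in FE255del at day 1. At day 11 it had -0.50 in WT, -0.19 in FE255del (adjusted p = 0.039) and 0.39 in R219S. The positive R219S value stands beside a Snai2 level that overlapped EV at day 11 and was below it at day 0.

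Ovol1 had -0.52 in WT, -0.63 in FE255del and -0.58 in R219S at day 1, and -0.66 in WT and -0.43 in FE255del at day 11. Grhl2 had 0.15 in FE255del and -0.16 in R219S at day 1, and -0.14 in R219S at day 11. Among the sparse genes, Zeb1 had 2.98 in WT at day 11, and Zeb2 had -2.62 in FE255del at day 11, 2.97 in R219S at day 1 and 1.61 in R219S at day 11. Some of these calls were lost in other settings. The Cdh1 call of WT at day 1 was kept in 5 of 20, that of Snai2 in FE255del at day 11 in 7 of 20, and those of Grhl2 in R219S in 15 of 20 at day 1 and 9 of 20 at day 11. The Grhl2 call in FE255del and the Cdh1 call in R219S at day 1 were each kept in 19 of 20, and the Ovol1 call in FE255del at day 11 in 18 of 20. The Zeb2 call of R219S at day 11 was kept in 14 of 19 and lost without EV replicate 3 of day 0 (1.39, adjusted p = 0.086), R219S replicate 2 (1.43, 0.076) or 3 (1.57, 0.052) of day 0, or EV replicate 1 (1.51, 0.054) or 3 (1.47, 0.058) of day 11.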

How the results depend on the processing

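No member fold change with a call reversed its sign in any setting tried. The calls of Vim, Snai2 and Ovol1 against EV at day 1 held in all 14 settings, as did those of Vim, Cdh1 and Snai2 at day 11. Counts of called members moved by over 1.5 times in few cases. Without the filter there was 1 in FE255del and 1 in R219S against EV at day 0 (2 each as reported), and 3 in FE255del against WT at day 1 (5 as reported). The stricter filter, which tests fewer sparse members, gave 1 in FE255del against EV at day 0, 3 in FE255del against WT at day 1, 3 in R219S against WT at day 1 (6 as reported) and 3 in R219S against FE255del at day 1 (5 as reported). Total-count scaling gave 5 in FE255del against WT at day 0 (3 as reported). A fit of the compared groups alone gave 1 in FE255del against EV at day 0, 5 and 3 in FE255del against WT at days 0 and 1, 2 in EV at day 1 against day 0 (0 as reported), and 3 in FE255del beyond EV at day 11 (5 as reported). The cause was not tested where none is named.

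Leaving out each library in turn gave 1 to 2 for FE255del and for R219S against EV at day 0, 3 to 5 for R219S beyond EV at day 11, 1 to 3 for FE255del against WT at day 1, 4 to 7 for FE255del at day 1 against day 0, and 1 to 2 for FE255del against WT at day 11. Same-numbered libraries did not deviate together (r from -0.248 to 0.253, and 0 of 29 comparisons had every pair above 0.1). With the replicate number as a block, 3 member calls were gained, 0 were lost and all 35 counts stayed within 1.5 times. Total-count scaling moved the median of all genes by 0.117 in WT against EV, by 0.106 in FE255del against its day 0, and by 0.115 in FE255del beyond EV, all at day 1, and by less than 0.1 in every other comparison reported. It also moved the share of higher genes among those called to 60.8% in WT (49% as reported) and 61% in FE255del (48% as reported) at day 1, to 42.6% in R219S at day 11 (55.2% as reported) and to 47.2% in R219S at day 0 (65.6% as reported).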
